A study of Arabidopsis thaliana with 13 samples.

Results

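The genes of cuticular wax, cutin and very-long-chain fatty acids were described in whole Arabidopsis thaliana seedlings as 53 of the 33033 genes of the deposited table. The members were chosen by gene identifier and by their known place in the pathway, with earlier results of these data known, so their count of calls is a description. They are 19 3-ketoacyl-CoA synthase (KCS) genes, 5 genes of the partners of these enzymes, 7 genes of wax synthesis, 10 of cutin synthesis, 4 of export and 8 of transcriptional regulators. The seedlings had 6 h of white light, were then kept in the dark at 22 °C, and were treated at 4 days for 4 h in liquid medium. Wild type (Col-0) was treated with 1‰ DMSO, the solvent (mock), with 30 µM pifithrin-alpha (PFT-alpha), an inhibitor of the animal protein p53, or with 10 µM ACC, the precursor of ethylene, in 3 libraries each. Seedlings of etr1-1, in which an altered ETR1 receptor blocks ethylene perception in the whole plant, received mock or PFT-alpha in 2 libraries each. All groups were thus dark-grown and kept in liquid medium, and each library is of whole seedlings, which hold the epidermis among all other tissues.

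The cuticle is a lipid layer that epidermal cells build on the outside of the shoot. The fatty acid elongase of the endoplasmic reticulum lengthens acyl-CoAs in cycles, with a KCS enzyme choosing the substrate of each cycle, and the products become alkanes, alcohols and wax esters. Cutin is a polyester of oxidised fatty acids and glycerol, and both kinds of lipid leave the cell through ABC transporters and lipid transfer proteins. MYB factors and SHN factors are known activators of these genes.

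Levels were read as TPM, which is per length and so allows genes to be compared. Of the 53 members, 43 passed the filter of 1 TPM in at least 2 of the 13 libraries, which 21091 of all genes passed. These were 15 of 19 KCS genes, 5 of 5 partners, 5 of 7 wax synthesis genes, 9 of 10 cutin genes, 4 of 4 export genes and 5 of 8 regulators. The most abundant member was LTPG1 (AT1G27950), a lipid transfer protein anchored at the cell surface, with a mean of 517 TPM over all libraries, followed by KCS10 (AT2G26250, FIDDLEHEAD) with 275 TPM and PAS2 (AT5G10480), the dehydratase of the elongase, with 235 TPM. The 10 members that did not pass were KCS14 (AT3G10280), which was at 0 in all libraries, KCS17 (AT4G34510), KCS18 (AT4G34520, the seed oil enzyme FAE1), KCS21 (AT5G49070), CER1-L1 (AT1G02190), MAH1 (AT1G57750, the alkane hydroxylase), GPAT6 (AT2G38110) and the 3 activators SHN1 (AT1G15360), SHN2 (AT5G11190) and SHN3 (AT5G25390). The highest value of any of these 10 in a library was 1.06 TPM, in KCS21. MYB106 (AT3G01140) passed through etr1-1 libraries alone, with 1.1 TPM in etr1-1 mock 2 and 1.28 TPM in etr1-1 PFT-alpha 2, so its filter depended on the group where it was high.

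The libraries held an estimated 20.3 to 29.3 M fragments, at which 1 TPM of a 2000-base transcript stands for 27.9 to 40.3 fragments. The wild-type libraries numbered 3 stood apart, at 74.4 to 87.0 on a principal component that holds 44.7% of the variance against -35.2 to -9.5 for all other libraries. Wild-type libraries of the same number deviated together in all 9 pairs, so each wild-type result is given from a fit of group means and, where the call differs, from a fit with the replicate number as a term (the paired fit). Deviations within a group sum to 0, so with number 3 apart this does not show that numbers 1 and 2 are paired. The calls of the paired fit assume this pairing. A gene was called at an adjusted p under 0.05 over all tested genes (limma, Benjamini-Hochberg). The library labelled etr1-1 mock 1 went against its label. It held 46.9 TPM of ERS2, an ethylene receptor gene that ethylene induces, against 11 TPM in etr1-1 mock 2, 10.8 and 13.4 TPM in etr1-1 under PFT-alpha, and 45.4 to 50.4 TPM in wild type under ACC. The ETR1 transcript does not check the genotype, since the allele changes an amino acid.

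The promoters of 4 members show the words searched for around the start sites, KCS9 and ABCG11 because each holds an L1 box, the element of epidermal genes, and CER1 and CER4 because they are, with KCS9, the members called lower under ACC in both fits. Each runs 5′ to 3′ along the gene from 250 bases before to 50 bases after the annotated start, read from RefSeq's TAIR10.1 genome and annotation, with the found words in capitals.
KCS9 (chr2:7050549-7050848, plus strand): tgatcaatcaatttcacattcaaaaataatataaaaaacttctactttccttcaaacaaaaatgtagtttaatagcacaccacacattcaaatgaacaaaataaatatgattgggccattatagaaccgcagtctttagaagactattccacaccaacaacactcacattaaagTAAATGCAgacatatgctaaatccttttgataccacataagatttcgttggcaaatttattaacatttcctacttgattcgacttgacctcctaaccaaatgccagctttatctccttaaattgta
ABCG11 (chr1:6142152-6142451, plus strand): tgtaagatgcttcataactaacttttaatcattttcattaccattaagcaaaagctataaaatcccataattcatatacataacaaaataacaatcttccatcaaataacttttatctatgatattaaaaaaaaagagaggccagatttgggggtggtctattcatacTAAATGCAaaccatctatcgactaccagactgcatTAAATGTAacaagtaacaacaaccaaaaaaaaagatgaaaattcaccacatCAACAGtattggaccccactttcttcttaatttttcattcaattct
CER1 (chr1:418166-418465, plus strand): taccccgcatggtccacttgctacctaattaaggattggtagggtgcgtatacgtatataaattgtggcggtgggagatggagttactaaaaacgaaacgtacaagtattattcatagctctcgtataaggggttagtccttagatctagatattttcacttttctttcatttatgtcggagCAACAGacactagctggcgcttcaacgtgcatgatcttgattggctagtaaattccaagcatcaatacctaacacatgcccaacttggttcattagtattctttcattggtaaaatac
CER4 (chr4:16207907-16208206, minus strand): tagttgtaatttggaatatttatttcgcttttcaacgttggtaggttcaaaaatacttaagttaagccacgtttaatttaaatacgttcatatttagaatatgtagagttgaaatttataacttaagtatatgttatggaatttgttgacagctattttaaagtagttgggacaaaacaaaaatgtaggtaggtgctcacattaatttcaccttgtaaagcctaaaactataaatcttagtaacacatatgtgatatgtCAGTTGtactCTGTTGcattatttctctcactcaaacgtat
The L1 box was searched as TAAATGCA or TAAATGTA, MYB words as CNGTTA or CNGTTG, the GCC box as GCCGCC and the G-box as CACGTG, all on both strands. An L1 box was found in 9 of the 53 members' windows (17%) and in 5.1% of the 27443 windows of protein-coding genes. It lay 76 bases before the start in KCS9, 54 bases before it in KCS10, and 82 and 47 bases before it in ABCG11. MYB words were in 25 of 53 windows (47.2%) beside 46% of all windows. The GCC box was in 1 window of a member (1.89%, beside 2.57% of all) and the G-box in 0 (beside 7.68%). Among members called lower under ACC in the paired fit, 4 of 23 held an L1 box. Among the tested members that were not called, 4 of 20 did, so the word did not separate them. MYB words were in 14 of those 23 windows (60.9%) and in 8 of those 20 (40%), a difference that was not tested.

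Most of the 43 tested wax and cutin members were lower under ACC than in mock in wild type. Called members lay in all 6 steps in the paired fit. In the fit of group means they lay only among the KCS genes (1) and wax synthesis (2). In the paired fit 23 of the 43 tested members fell and 0 rose, beside 3.93% of all tested genes that fell. In the fit of group means 3 members fell, CER4, KCS9 and CER1, beside 0.621% of all genes. The median difference of the 43 members was -0.71 on the log2(TPM + 1) scale beside -0.00 over all tested genes, and 38 of 43 differences were below 0. Between same-numbered libraries 34 of 43 members were lower under ACC in all 3 pairs, as were 19.3% of all genes. With no overlap between the groups 24 of 43 were lower, as were 7.78% of all genes. Both counts include MYB106, which passed the filter through etr1-1 libraries alone. It lay at 0.20 to 0.26 TPM under ACC and 0.27 to 0.77 TPM in mock. Summed over the 53 members, the level was 3392 to 4909 TPM in mock and 2218 to 2726 TPM under ACC, without overlap. The calls of the paired fit depended on which libraries entered it. Of the 23 members, 6 were called without wild-type mock 2 or without ACC 2, 10 without mock 1, 12 without mock 3, 14 without PFT-alpha 2, 16 without ACC 1, 19 without PFT-alpha 1, 21 without ACC 3 and 23 without PFT-alpha 3. All 23 stayed below 0 in each of these. The 6 members called whichever wild-type library was left out were KCS9, KCS5, CER4, CER1, CER3 and LTPG2.

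**Figure D1:**
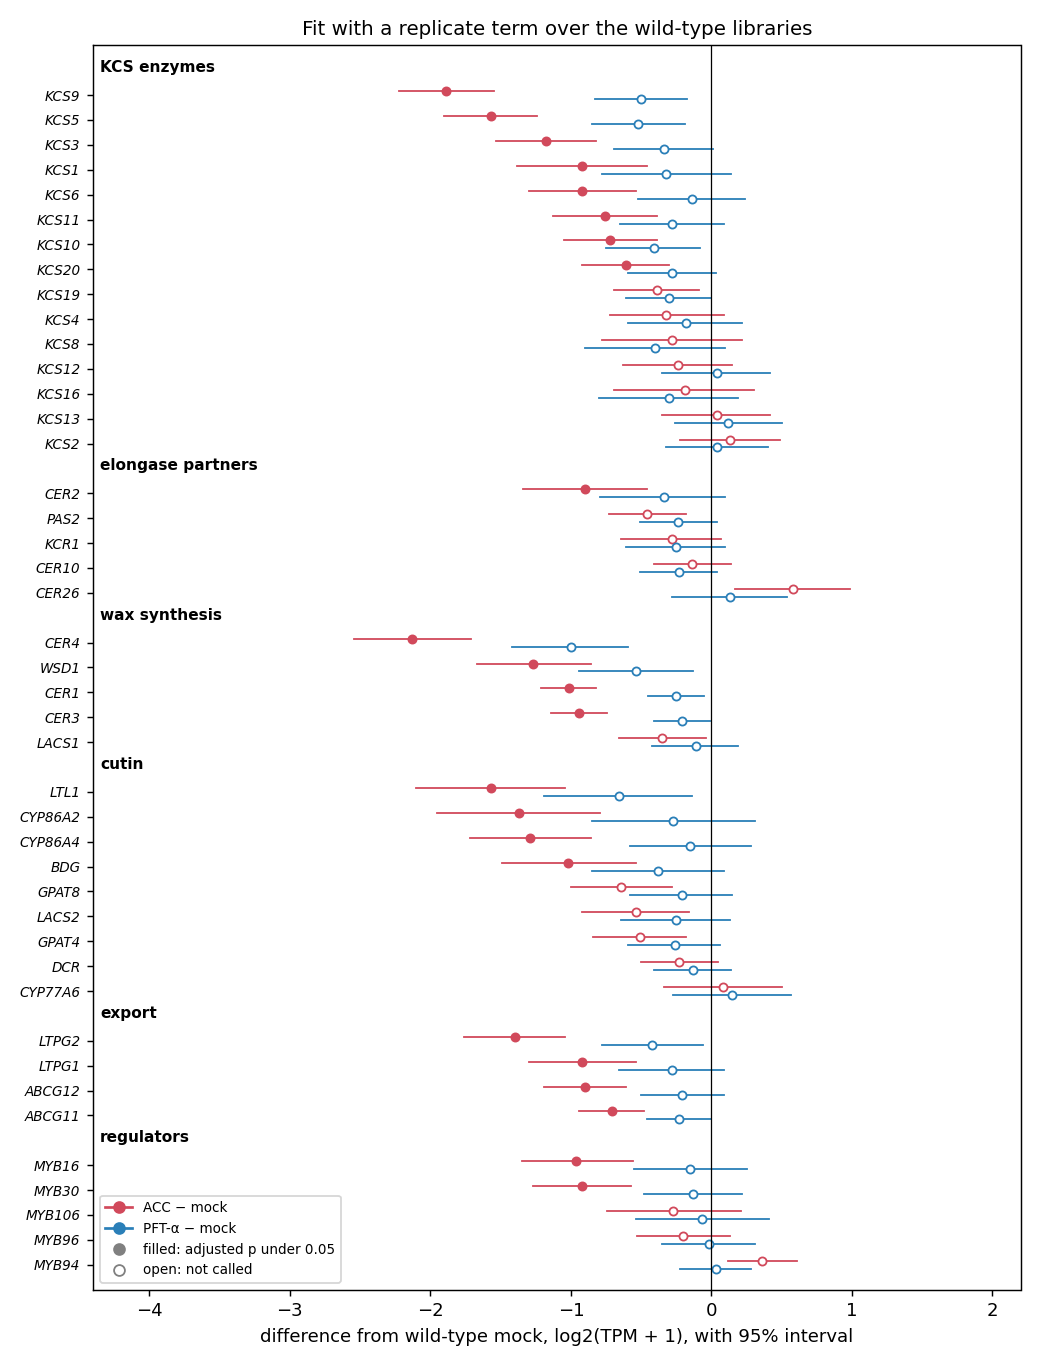
Difference from wild-type mock on the log2(TPM + 1) scale for the 43 tested members, by step, from the paired fit over 9 wild-type libraries (points, with 95% intervals as lines; filled points are called). ACC (red) lies below 0 for 38 members and is called for 23, while PFT-alpha (blue) lies below 0 for 37 and is called for 0.

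Of 6 markers of the epidermis, the tissue that makes the cuticle, 2 fell under ACC in the paired fit. PDF1, an abundant transcript of the outermost cell layer, measured 633, 841 and 878 TPM in mock, 510, 573 and 539 TPM under PFT-alpha and 251, 227 and 328 TPM under ACC. It fell by 1.55 on the log2 scale under ACC in both fits (limma, adjusted p = 0.0026 in the paired fit). GL2 (−0.70, adjusted p = 0.0213) fell and ANL2 (0.35, adjusted p = 0.0416) rose in the paired fit, and ATML1, PDF2 and HDG1 were not called. The summed level of the 6 was 821 to 1033 TPM in mock, 666 to 753 under PFT-alpha and 399 to 469 under ACC, and PDF1 makes up most of it. No marker of the 6 was at 0 in any library. The part of the markers' change in the members' change was not tested, and in whole seedlings fewer epidermal cells and less RNA per cell cannot be told apart. Of 11 seed storage and oil body genes, 1 fell (SESA4, −1.50, adjusted p = 0.0356 in the paired fit), with sums of 601 to 2505 TPM in mock and 288 to 3177 TPM under ACC. All 11 lay below 0 under ACC, with a median difference of -0.93, and 10 of 11 lay below 0 under PFT-alpha, with a median of -1.22, and their part in the members' change was not tested. Of the antenna and Rubisco genes 0 of 12 were called. Their sums were 21756 to 51624 TPM in mock, 24400 to 63322 TPM under PFT-alpha and 23242 to 54342 TPM under ACC. In each of these groups the library numbered 3 was the highest. Above 0 lay 10 of 12 under ACC and 12 of 12 under PFT-alpha, with median differences of 0.19 and 0.20. Their part in the members' change was not tested.

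**Figure D2:**
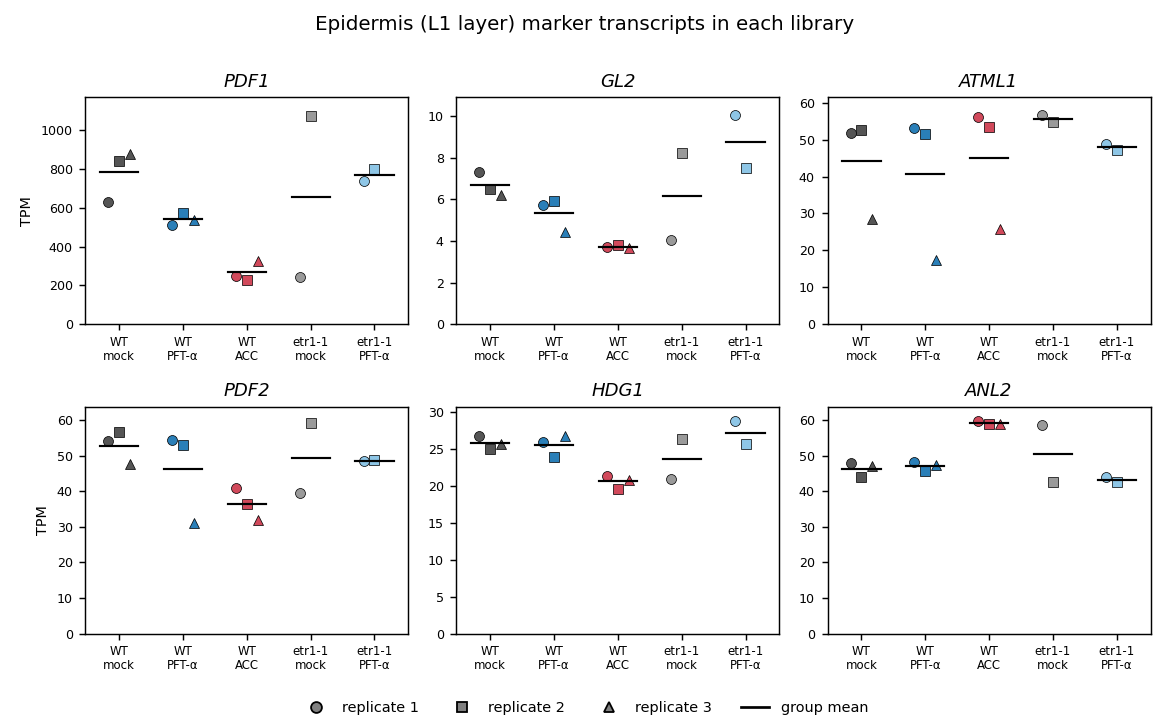
TPM of the 6 epidermis markers in each library, by group (marker shape gives the replicate number, bars the group means). PDF1 lies at 633 to 878 TPM in wild-type mock and at 227 to 328 TPM under ACC, while ATML1 is set apart by replicate 3 rather than by treatment.

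Among the 15 tested KCS genes, 8 fell under ACC in the paired fit. KCS9 (AT2G16280), which lengthens acyl chains for wax and suberin, measured 64.6, 76.8 and 60.9 TPM in mock, 50.2, 56.9 and 36.6 TPM under PFT-alpha and 16.5, 17.1 and 18.7 TPM under ACC. The 3 groups did not overlap, with PFT-alpha between mock and ACC. The difference of ACC from mock was -1.89 ± 0.14 (log2 difference ± SE, as in all values of this form, with an adjusted p of 0.00135) in the paired fit and had an adjusted p of 0.00474 in the fit of group means. KCS5 (AT1G25450, CER60), a wax enzyme, measured 46.8, 54.7 and 34.0 TPM in mock and 17.4, 16.9 and 9.80 TPM under ACC, without overlap. It fell by 1.57 ± 0.14 in the paired fit (adjusted p = 0.0021), while the group means gave an adjusted p of 0.124. KCS6 (AT1G68530, CER6), the main KCS of stem wax, measured 264, 297 and 125 TPM in mock and 107, 147 and 89.9 TPM under ACC. Its groups overlapped, since mock 3 lay below ACC 2, and it fell by 0.92 ± 0.16 in the paired fit alone (adjusted p = 0.0211).

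KCS10, which keeps growing organs from fusing, measured 338, 368 and 248 TPM in mock and 221, 225 and 137 TPM under ACC, all lower, with a paired difference of -0.72 ± 0.14 (adjusted p = 0.0299). KCS3 (AT1G07720) fell by 1.18 ± 0.15 (adjusted p = 0.00684), KCS1 (AT1G01120), an enzyme of wax chains, by 0.92 ± 0.20 (adjusted p = 0.0408), KCS11 (AT2G26640) by 0.76 ± 0.16 (adjusted p = 0.0379) and KCS20 (AT5G43760) by 0.61 ± 0.13 (adjusted p = 0.0456), each in the paired fit alone. The other 7 tested KCS genes, KCS2 (AT1G04220), KCS4 (AT1G19440), KCS8 (AT2G15090), KCS12 (AT2G28630), KCS13 (AT2G46720), KCS16 (AT4G34250) and KCS19 (AT5G04530), differed by -0.39 to 0.13 and were not called. KCS2, known for suberin, was at 51.8, 52.5 and 57.4 TPM in mock and 44.0, 60.9 and 77.3 TPM under ACC, which overlap. An antisense gene covers 74.5% of KCS2, and its value is uncertain because the counting's use of strand is not stated. KCS13 and KCS14 share stretches of 75 bases, 21.6% of those of KCS13, so reads could be split between them, and no other pair of members does.

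Of the 5 partners of the KCS enzymes, 1 fell in the paired fit. KCR1 (AT1G67730), the ketoacyl reductase, and CER10 (AT3G55360), the enoyl reductase, differed by -0.28 (95% interval -0.64 to 0.07) and -0.14 (-0.41 to 0.14). PAS2 measured 235, 274 and 293 TPM in mock and 200, 195 and 186 TPM under ACC, without overlap, but its difference of -0.46 ± 0.12 was not called (adjusted p = 0.0739 in the paired fit). CER2 and CER26 are related proteins that let elongation go on to the longest chains. CER2 (AT4G24510) measured 186, 195 and 118 TPM in mock and 87.0, 104 and 71.8 TPM under ACC and fell by 0.90 ± 0.19 in the paired fit (adjusted p = 0.0399). CER26 (AT4G13840) was higher in every ACC library, with 4.34, 6.46 and 5.04 TPM against 2.77, 2.90 and 3.90 TPM in mock, yet its difference of 0.58 ± 0.18 was not called (adjusted p = 0.124). An antisense gene lies over 16% of CER2.

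In wax synthesis 4 of 5 tested genes fell in the paired fit. CER4 (AT4G33790), the reductase that makes primary alcohols, measured 4.24, 5.43 and 3.49 TPM in mock and 0.12, 0.23 and 0.32 TPM under ACC. The groups lay far apart on the TPM scale, and the log2(TPM + 1) scale, which understates changes of low genes, gave -2.13 ± 0.18 (adjusted p = 0.00176, and 0.00566 from group means). The ACC values of CER4 rest on few fragments. CER1 (AT1G02205) and CER3 (AT5G57800) act together in making alkanes. CER1 measured 63.3, 68.2 and 72.3 TPM in mock and 34.0, 32.8 and 32.4 TPM under ACC and fell by 1.01 ± 0.09 (adjusted p = 0.00176, and 0.00624 from group means). Without wild-type mock 2 the fit of group means no longer called CER1 (adjusted p = 0.0541). CER3 measured 82.0, 92.5 and 76.4 TPM in mock and 46.2, 47.0 and 36.9 TPM under ACC and fell by 0.94 ± 0.09 (adjusted p = 0.00225, and 0.0501 from group means). In both alkane genes the ACC libraries lay below all mock libraries, including those numbered 3. WSD1 (AT5G37300), the wax ester synthase, was at 3.43, 5.04 and 1.75 TPM in mock and 0.79, 1.09 and 0.41 TPM under ACC and fell by 1.27 ± 0.17 in the paired fit (adjusted p = 0.00853). LACS1 (AT2G47240), which activates long fatty acids, differed by -0.35 (95% interval -0.66 to -0.04) and was not called (adjusted p = 0.208).

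**Figure D3:**
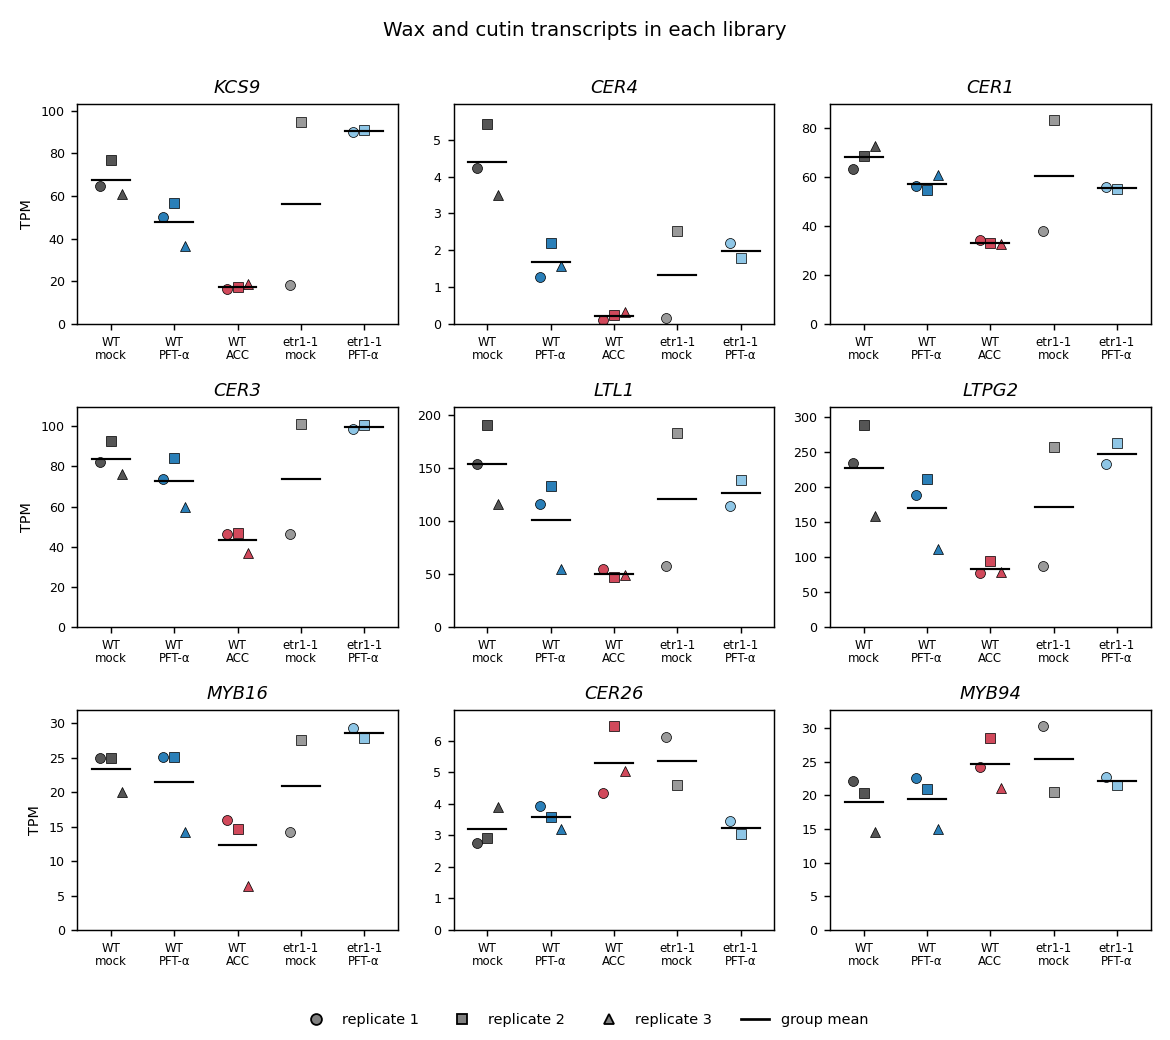
TPM of 9 members in each library, by group (marker shape gives the replicate number, bars the group means). KCS9, CER4, CER1, CER3, LTL1 and LTPG2 lie lower in the 3 ACC libraries than in any mock library, CER26 lies higher, and etr1-1 mock 1 lies apart from etr1-1 mock 2.

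Of 9 tested cutin genes, 4 fell under ACC in the paired fit and 0 in the fit of group means. LTL1 (AT3G04290), a GDSL lipase, measured 153, 191 and 116 TPM in mock and 54.8, 46.7 and 48.6 TPM under ACC, without overlap, and fell by 1.57 ± 0.23 (adjusted p = 0.01). CYP86A2 (AT4G00360), a fatty acid hydroxylase and the most abundant cutin member, measured 161, 184 and 56.1 TPM in mock and 48.5, 60.6 and 31.7 TPM under ACC. Mock 3 lay below ACC 2, and the paired difference was -1.37 ± 0.25 (adjusted p = 0.024). An antisense gene lies over 32.8% of CYP86A2. CYP86A4 (AT1G01600), a hydroxylase of the same family, fell by 1.29 ± 0.18 (adjusted p = 0.00985), and BDG (AT1G64670), a hydrolase of the epidermal wall, by 1.02 ± 0.20 (adjusted p = 0.0319). The 5 that were not called were LACS2 (AT1G49430), GPAT4 (AT1G01610) and GPAT8 (AT4G00400), acyltransferases of cutin monomers, DCR (AT5G23940) and CYP77A6 (AT3G10570), with differences of -0.64 to 0.08. CYP86A4 and GPAT4 are adjacent on chromosome 1, and their differences were -1.29 and -0.51.

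All 4 export genes fell in the paired fit. LTPG1 measured 606, 665 and 576 TPM in mock, 528, 540 and 451 TPM under PFT-alpha and 273, 313 and 400 TPM under ACC, and its 3 groups did not overlap. It fell by 0.92 ± 0.16 under ACC (adjusted p = 0.021, and 0.0865 from group means). LTPG2 (AT3G43720), its relative, measured 235, 289 and 158 TPM in mock and 76.7, 94.6 and 78.0 TPM under ACC, without overlap, and fell by 1.40 ± 0.15 (adjusted p = 0.00435, and 0.0932 from group means). The transporters ABCG12 (AT1G51500, CER5) and ABCG11 (AT1G17840), which carry wax and, for ABCG11, cutin precursors, fell by 0.90 ± 0.12 (adjusted p = 0.00888) and 0.71 ± 0.10 (adjusted p = 0.0091). ABCG11 was at 98.7, 108 and 76.2 TPM in mock and 63.0, 62.4 and 46.6 TPM under ACC, and an antisense gene lies over 14.5% of it.

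Of 5 tested regulators, 2 fell in the paired fit. MYB30 (AT3G28910), an activator of elongase genes and the most abundant regulator, measured 103, 95.2 and 75.8 TPM in mock and 40.9, 54.1 and 48.5 TPM under ACC, without overlap, and fell by 0.92 ± 0.15 (adjusted p = 0.0158, and 0.0968 from group means). MYB16 (AT5G15310), an activator of cuticle genes, measured 25, 25 and 20.0 TPM in mock and 15.9, 14.7 and 6.32 TPM under ACC and fell by 0.96 ± 0.17 (adjusted p = 0.0219). MYB96 (AT5G62470), a wax activator under drought, differed by -0.20 (95% interval -0.53 to 0.13). MYB94 (AT3G47600), its close relative, was higher under ACC in all 3 pairs, at 24.3, 28.4 and 21.1 TPM against 22.1, 20.4 and 14.6 TPM, but its groups overlapped and the difference of 0.36 ± 0.11 was not called (adjusted p = 0.11). MYB106, related to MYB16, was at 0.20 to 0.77 TPM in these libraries, and an antisense gene covers 80.3% of it.

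Of 18 other genes of the same pathways 13 were tested under ACC, 2 fell in the paired fit and 0 in the fit of group means. Their median difference was -0.01, with 7 below 0 and 6 above. HTH, an oxidoreductase that keeps floral organs apart, fell by 0.82 ± 0.18 (adjusted p = 0.0468), and ABCG32, a cutin transporter, by 0.61 ± 0.13 (adjusted p = 0.0356). FAR1, a fatty acyl reductase, was higher in every ACC library, with 314, 300.9 and 197 TPM against 178, 170 and 156 TPM in mock, but was not called (0.66 ± 0.18, adjusted p = 0.0988 in the paired fit), and it is named after its values were seen. Of 10 suberin genes, which make the related polyester of the root, 6 were tested and 0 were called in either fit, with a median of -0.14. GPAT5, FAR5 and ABCG6 passed the filter through etr1-1 libraries alone. Among wild-type libraries CYP86A1 reached 1 TPM in PFT-alpha 1 alone. In wild-type mock and ACC libraries these low genes lay at 0 to 0.64 TPM, where a fall could hardly show. The median and the calls thus do not show that ACC left suberin genes as they were. The suberin list holds the reductase genes FAR4 and FAR5, while FAR1 was counted among the 18 other genes. The counts and median of the suberin list therefore leave out FAR1, which was higher in every ACC library. The 2 lists were set up with results of these data known and are described by counts alone.

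PFT-alpha gave no called member against mock. In the fit of group means and in the paired fit 0 of 43 members and 0 of all tested genes (0%) were called, with 161 and 817 genes and 3 and 9 members at an unadjusted p under 0.05. The median difference of the members was -0.25 beside -0.02 over all genes, and 37 of 43 lay below 0. Wild-type PFT-alpha 3 weighed heavily in this median. Without it, and with mock 3 kept, the median was 0.04 with 17 of 43 below 0 by group means. In the paired fit it was then -0.09 with 34 of 43 below 0. Without all wild-type libraries numbered 3 it was -0.11 with 33 of 43 below 0 by group means. Between same-numbered libraries 26 members were lower in all 3 pairs (17.3% of all genes were), and 4 members, KCS9, CER1, CER4 and LTPG1, were lower without overlap (2.57% of all genes were). CER4 was at 1.27, 2.20 and 1.58 TPM under PFT-alpha, below all mock libraries and above all ACC libraries. Its difference from mock was -1.0 ± 0.18 (95% interval -1.42 to -0.59; adjusted p = 0.657 in the paired fit). KCS9 differed by -0.50 (95% interval -0.83 to -0.17), and CER1 by -0.25 (-0.45 to -0.05), with 56.2, 54.5 and 60.7 TPM under PFT-alpha. A missed threshold at 3 libraries a group does not show that PFT-alpha left these genes as they were.

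Most of the tested wax and cutin members (37 of 43) were higher under PFT-alpha than under ACC in wild type. This comparison uses the same ACC libraries as ACC against mock, so the 2 are not independent. In the fit of group means 2 members were higher under PFT-alpha, KCS9 by 1.39 ± 0.18 (adjusted p = 0.0315) and CER1 by 0.77 ± 0.10 (adjusted p = 0.0417), beside 0.123% of all genes. CER1 lost this call without any 1 of the 9 wild-type libraries, and KCS9 lost it without any but PFT-alpha 3. In the paired fit 10 members were higher, beside 1.7% of all genes, and 0 were lower. Beside KCS9 (adjusted p = 0.00728) and CER1 (adjusted p = 0.00863) these were CER3, CER4, KCS3, KCS5, CYP86A4, ABCG12, LTPG2 and MYB30, with differences of 0.69 (ABCG12, adjusted p = 0.0373) to 1.14 (CYP86A4, adjusted p = 0.0278). They lie in 5 of the 6 steps, as 3 KCS, 3 wax synthesis, 1 cutin, 2 export and 1 regulator gene, and none of the 5 partners was called. PDF1 was also higher under PFT-alpha than under ACC, by 1.02 (adjusted p = 0.0198 in the paired fit). None of the 10 was called in the paired fit without ACC 2, PFT-alpha 1 or PFT-alpha 2, and 3 to 10 were called without each of the others. All 10 stayed higher in each of these fits.

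In etr1-1 no member was called in any comparison of either fit with all libraries. Of all genes 0.0284% were called between etr1-1 and wild type in mock, 0.0284% between them under PFT-alpha, 0.0142% between PFT-alpha and mock in etr1-1, and 0.00474% in the interaction of genotype and PFT-alpha (6, 6, 3 and 1 genes in the fit of group means). The members at an unadjusted p under 0.05 numbered 3, 2, 1 and 3. These counts are not set beside the share of all genes, so they are not read as a result about the members. The 2 mock libraries of etr1-1 stood far apart. KCS9 measured 18.2 TPM in etr1-1 mock 1 and 94.4 TPM in mock 2, and 89.8 and 91.0 TPM under PFT-alpha. LTL1 measured 57.9 and 183 TPM in mock and 114 and 139 TPM under PFT-alpha, and CER4 0.16 and 2.51 TPM in mock and 2.19 and 1.79 TPM under PFT-alpha. In these 3 genes the library labelled etr1-1 mock 1 lay near the wild-type ACC libraries. The other 3 mutant libraries lay above wild-type mock in KCS9 but below it in CER4, as they did in CYP86A4 (19.3 TPM in mock 2, and 19.6 and 21.2 TPM under PFT-alpha, against 24.1 to 34.8 TPM). Over the 43 members the median difference from the wild-type mock mean was -0.46 in etr1-1 mock 1, 0.28 in mock 2, and 0.14 and 0.10 under PFT-alpha, beside -0.91 to -0.46 in the wild-type ACC libraries.

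**Figure D4:**
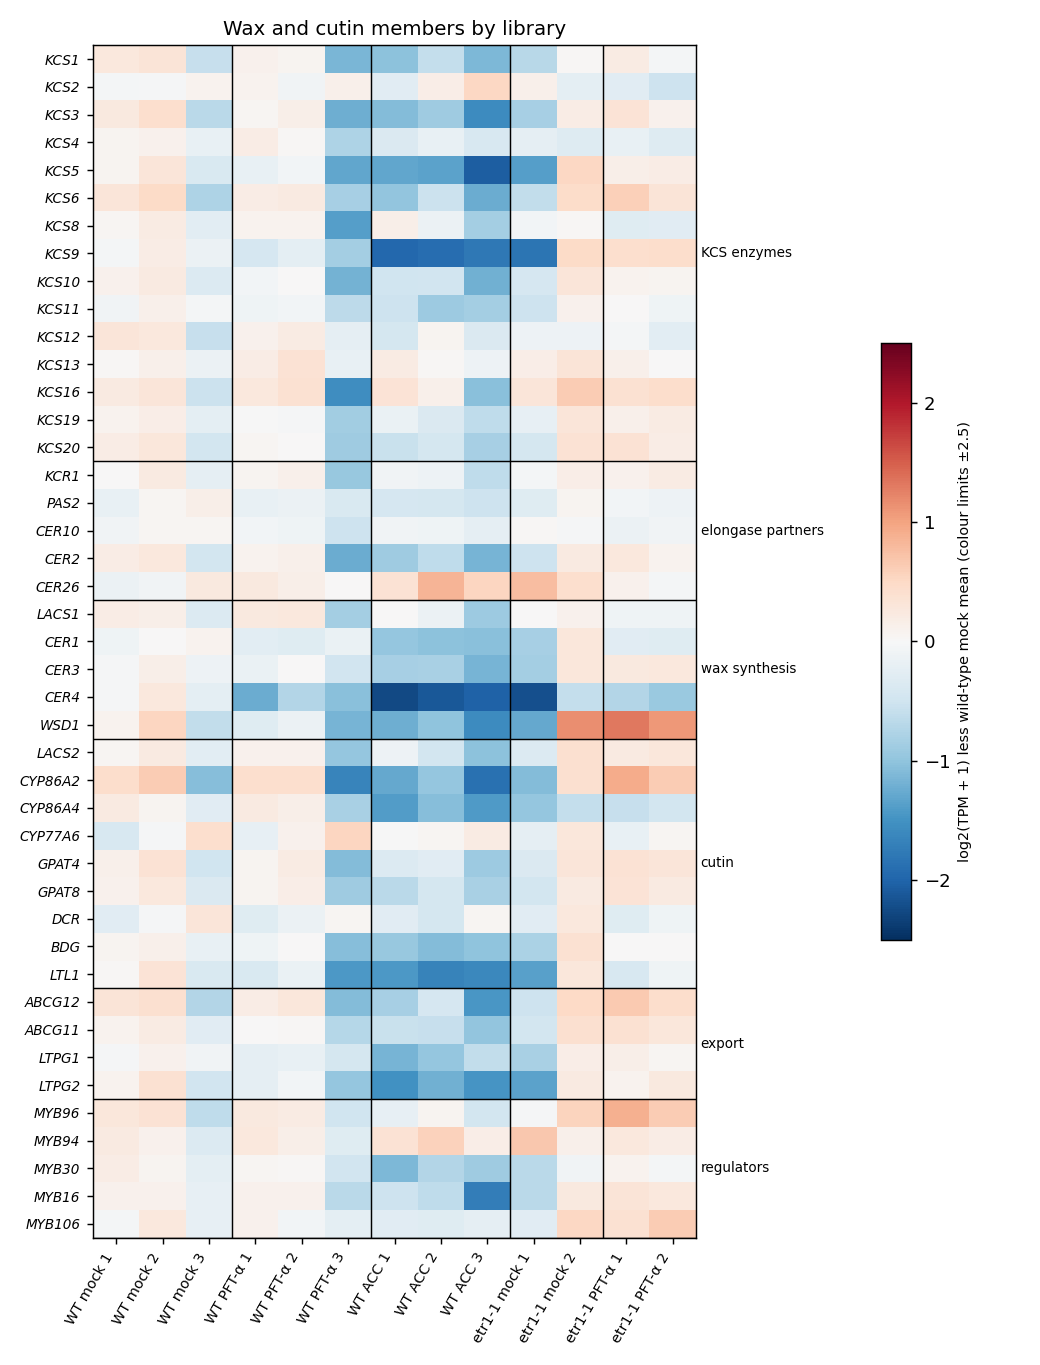
Level of the 43 tested members in each of the 13 libraries as log2(TPM + 1) less the wild-type mock mean (blue is lower, red is higher), ordered by step. The ACC libraries and etr1-1 mock 1 are lower for 35 to 38 of 43 members, wild-type mock 3 and PFT-alpha 3 for 36 and 39, and the other 3 etr1-1 libraries for 7 to 16.

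Leaving out the library labelled etr1-1 mock 1 changed the mutant comparisons. The median difference of the members between etr1-1 and wild type in mock went from -0.09 to 0.28, and that between PFT-alpha and mock in etr1-1 from 0.28 to -0.06, by group means, with 0 members called in each. The lone remaining mock library is then assumed to vary like the other groups. WSD1 had the largest difference of any tested member between etr1-1 and wild type under PFT-alpha, with 8.41 TPM in mock 2 and 9.48 and 7.90 TPM under PFT-alpha against 0.86 to 2.81 TPM in wild type under PFT-alpha. It was not called, with 1.74 ± 0.61 (adjusted p = 0.606) from group means with all libraries and 1.74 ± 0.39 (adjusted p = 0.129) without etr1-1 mock 1. KCS9 differed by 0.92 ± 0.50 (adjusted p = 0.791) and, without that library, by 0.92 ± 0.18 (adjusted p = 0.0853). The mutant markers of the epidermis summed to 425 and 1264 TPM in mock and 918 and 970 TPM under PFT-alpha, and its seed storage transcripts to 393 and 5099 TPM in mock and 5597 and 6187 TPM under PFT-alpha, above the 288 to 3177 TPM of the wild-type libraries in all but mock 1. Their part in these differences was not tested.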

How the data were processed

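RNA sequencing measured polyadenylated transcripts in 13 libraries, whose groups and replicate numbers come from the labels. The deposited table holds TPM for 33033 genes, made by the authors and named so per the file headers. TPM is a share of the library per unit of transcript length, so a rise of a few abundant genes lowers the others. The submitters' processing notes name the TAIR10 build and the tools RSEM, StringTie, HISAT, HISAT2, DESeq2 and fastp, without versions or roles. Libraries were stranded per the labels' protocols, and use of strand in counting is not given in the sources used here. The deposited group means (5 columns) were not used. No count model was fitted, since the values are TPM. Depth was estimated from the steps of low TPM values times length less 200 to 270 bases, where 83.2 to 86.9% of values lay within 0.15 of a whole step.

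The members and lists were chosen with earlier results of these data known. Values were analysed as log2(TPM + 1) over 21091 genes, those that reached 1 TPM in 2 or more libraries (6724 genes were at 0 in all). Two-sided tests came from limma 3.58.1 (R 4.3.3, trend on mean level) with Benjamini-Hochberg adjustment at 0.05 in 7 comparisons, over 9 wild-type libraries for comparisons within wild type and all 13 otherwise. The code of the wild-type fits was tested on data simulated with the replicate shifts of these libraries. That cannot show whether pairing by number is right, and the mutant comparisons were not simulated. In the paired fit the wild-type libraries were treated as paired by number. The deviations of same-numbered libraries from their group means correlated across genes at 0.28 to 0.77 in all 9 pairs. Within a group these deviations sum to 0, and all wild-type libraries numbered 3 stood apart. Numbers 1 and 2 then deviate together against 3, so the correlations cannot show whether 1 and 2 are paired. No label says what the numbers share, and 5 of 9 wild-type libraries correlated best with their own number. Nothing in the labels beyond the words biological replicates says how the replicates were grown. Named are members called in any comparison by either fit, and the most abundant member of each step. In the lists, genes called in a wild-type comparison were named, except among the ethylene markers, where ERS2 serves as a label check. All 53 identifiers were found in the RefSeq gene table. Promoters were read from RefSeq's TAIR10.1, with its own annotation. Protein sequences were not used here. Alternatives were another pseudocount, no filter, median-of-ratios scaling, library weights, all 13 libraries, the replicate term, and leaving out libraries. Tables and figures used Python 3.11.15, numpy 2.4.6, pandas 2.3.3 and matplotlib 3.10.9.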

Additional observations from a re-analysis of the deposited data

How the results depend on the processing

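No difference of a member called under ACC against mock or between PFT-alpha and ACC, in either fit, changed sign under an alternative. Members that were not called did. Under PFT-alpha against mock 37 of 43 lay below 0 with all libraries. Without wild-type PFT-alpha 3, and with mock 3 kept, 17 of 43 did by group means and 34 of 43 in the paired fit. Without all wild-type libraries numbered 3, 33 of 43 did by group means. Under ACC against mock, 3 members and 189 genes were called by group means. The counts were 0 and 2 with all 13 libraries in the fit, 26 and 1980 with library weights, 23 and 1159 with the replicate term (replicate block), 11 and 710 with that block over all 13 libraries, and 24 and 1224 without the wild-type libraries numbered 3. For PFT-alpha against mock, 0 members and 0 genes became 3 and 349 with library weights (CER1, KCS9 and CER4, all lower), and 1 gene was called without the libraries numbered 3. For PFT-alpha against ACC, 2 members and 41 genes became 0 and 0 with all 13 libraries, 22 and 1264 with weights, 10 and 551 with the block, 19 and 668 without the libraries numbered 3, 0 members with the block over all 13, and 1 member with median-of-ratios scaling.

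Etr1-1 against wild type in mock gave 3 genes with a pseudocount of 0.1, 17 with the block, 141 with the block and without etr1-1 mock 1, and 16 without the libraries numbered 3. Under PFT-alpha the same contrast gave 7 members and 3293 genes with weights, 23 genes with no filter, 13 with the block, 2 members and 571 genes with the block and without etr1-1 mock 1, and 11 genes without the libraries numbered 3. PFT-alpha against mock in etr1-1 gave 18 genes with no filter, 5 with the block and 13 without the libraries numbered 3. The interaction gave 5 genes with weights, 13 with no filter, 0 with a pseudocount of 0.1, 2 with the block, 3 with the block and without etr1-1 mock 1, and 2 without the libraries numbered 3. The cause of these moves was not tested. In etr1-1 the replicate numbers only name libraries (correlations of 0.13 in its 2 pairs, and -0.22 to 0.24 with wild type).

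Leaving out each library in turn gave 2 to 10 members and 35 to 285 genes under ACC against mock (6 to 25 and 218 to 1099 with the block), 0 members and 0 to 3 genes under PFT-alpha against mock (0 and 0 to 2 with the block), and 0 to 2 members and 1 to 50 genes between PFT-alpha and ACC (0 to 15 and 52 to 530 with the block). It gave 0 to 2 members and 3 to 55 genes for etr1-1 in mock, 0 and 2 to 100 for etr1-1 under PFT-alpha, 0 to 1 and 2 to 200 for PFT-alpha in etr1-1, and 0 to 2 and 1 to 135 for the interaction. The block over all 13 libraries and the block with 1 library left out were chosen after seeing the data. Low values rest on few fragments, as in MYB106 and, under ACC, in the called members CER4 (0.12 to 0.32 TPM) and WSD1 (0.41 to 1.09 TPM). KCS13 and CYP77A6 lay near the filter of 1 TPM.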
